A study of Mus musculus with 6 samples.

Results

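The 41 genes described here are those of Toll-like receptor signalling, taken from a fixed list and out of 21853 protein-coding genes of the mouse annotation. They comprise 12 receptors and co-receptors, 4 adaptors, 5 TRAF and TAB proteins, 17 kinases and kinase subunits and 3 inhibitors. For each gene, peaks of 4 lists were counted when any base lay within 10 kb or 50 kb of its transcription start site (TSS) in GRCm38, the build of the lists. The lists came from CUT&RUN, in which an antibody guides a nuclease to chromatin and the released fragments are sequenced. The cells were bone marrow-derived macrophages (BMDMs) of C57BL/6 mice, males aged 7 to 10 weeks, grown from marrow for 6 d in L929-conditioned medium. Cells labelled LPS received lipopolysaccharide, a component of the wall of Gram-negative bacteria, for 1 h, and control cells labelled PBS received PBS for 1 h. Each treatment had 1 library for H3K4me1, a histone mark of enhancers, 1 for H3K27ac, a mark found at active promoters and active enhancers, and 1 for IgG, and neither the number of mice behind a library nor their pooling was given. All values below therefore describe single libraries, with no replicate error and no test between treatments.

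Toll-like receptors are membrane proteins that bind conserved parts of microbes, at the cell surface for bacterial wall components and in endosomes for nucleic acids. Ligand binding brings adaptors to the receptor, adaptors assemble kinases of the IRAK family and ubiquitin ligases of the TRAF family, and these switch on the IKK complex and the MAP kinases. The outcome in macrophages is the induction of cytokine genes through NF-κB and AP-1, and of interferon genes through a branch that runs over TBK1.

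The lists held 64758 PBS H3K4me1 peaks, 73049 LPS H3K4me1 peaks, 52 PBS H3K27ac peaks and 4200 LPS H3K27ac peaks. The number of fragments at each summit was recovered from the values that the peak caller gave, and its median was 17 in both H3K4me1 lists, 11 in the PBS H3K27ac list and 9 in the LPS H3K27ac list. As a check of the cell type, 8 of 10 macrophage markers had a PBS H3K4me1 peak within 10 kb and 10 of 10 had an LPS one. The shares of all protein-coding genes were 41.3% and 47.6%. In the same order the counts were 1 and 3 of 6 for T cell markers, 3 and 4 of 6 for B cell markers, 2 and 2 of 6 for neutrophil markers, 2 and 2 of 6 for dendritic cell markers and 1 and 1 of 6 for fibroblast markers. Some other counts did not separate the cell types in this way. PBS H3K4me1 within 50 kb lay at 10 of 10 macrophage markers but also at 6 of 6 B cell and 6 of 6 neutrophil markers. LPS H3K4me1 within 50 kb lay at 10 of 10 macrophage markers, and at 6 of 6 markers each of T cells, neutrophils and dendritic cells. LPS H3K27ac within 10 kb lay at 1 of 10 macrophage and 2 of 6 T cell markers, against 8.93% of all genes. Each peak is described by its fold enrichment over the local background, its −log10 q (a larger value stands for stronger evidence) and its fragments at the summit. Since depth and control of each library enter these values, they are not compared between lists. In bulk cells, a mark present in few cells and a weak mark in all cells cannot be told apart.

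Most genes of the pathway carried H3K4me1 in the control cells. A PBS H3K4me1 peak lay within 10 kb of 36 of 41 TSSs, or 87.8% (95% Wilson interval 74.5 to 94.7%), against 41.3% of all protein-coding genes. In the LPS library the count was 35 of 41 (85.4%, 71.6 to 93.1%), against 47.6% of all genes. Within 50 kb it was 41 of 41 in PBS cells, against 65.7% of all genes, and 40 of 41 in LPS cells (97.6%, 87.4 to 99.6%), against 69.6%. The median gene of the pathway had 3 PBS and 4 LPS H3K4me1 peaks within 10 kb, where the median over all genes was 0 in both lists. Wilson intervals here cover counting error only, and the genes were not drawn at random.

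H3K27ac peaks lay near a minority of these genes and came from the LPS library alone. Within 10 kb, 15 of 41 genes had an LPS H3K27ac peak (36.6%, 23.6 to 51.9%), against 8.93% of all genes, and within 50 kb 18 of 41 had one (43.9%, 29.9 to 59%), against 22.7%. No gene of the pathway had a PBS H3K27ac peak within either window, where the shares of all genes were 0.174% and 0.444%. With so few genes near any of the 52 PBS peaks, a count of 0 of 41 (upper bound 8.57%) does not set the pathway apart. As the PBS list was this short beside the 4200 peaks of the LPS list, a missing PBS peak cannot be read as a missing mark. Whether H3K27ac was gained at these genes under LPS was not tested. The PBS H3K27ac peak closest to any of these TSSs lay 364155 bp from Mapk9.

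**Figure D1:**
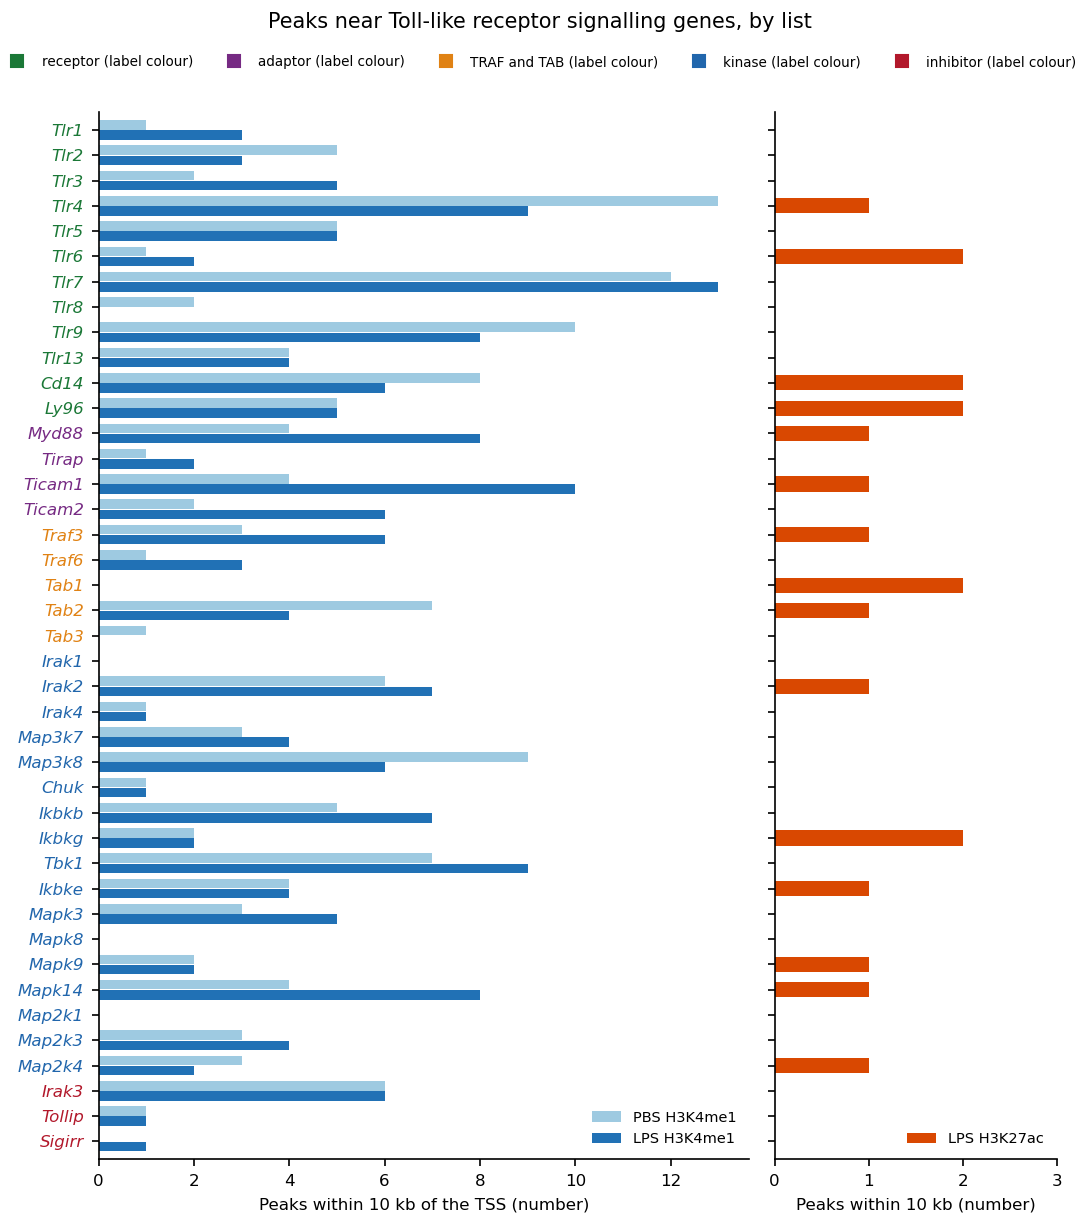
Number of peaks within 10 kb of the TSS of each of the 41 genes (horizontal axes), with PBS and LPS H3K4me1 in the left panel and LPS H3K27ac in the right panel. Gene names are coloured by step. H3K4me1 bars reach 13 peaks at Tlr4 and Tlr7, while LPS H3K27ac bars are at 1 or 2 peaks for 15 genes and at 0 for the other 26. PBS H3K27ac is not drawn, as its count was 0 throughout.

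The receptor for LPS itself, Tlr4, had more PBS H3K4me1 peaks than any other gene of the pathway. It had 13 PBS and 9 LPS H3K4me1 peaks within 10 kb, which covered 5429 bp and 8041 bp. The highest by −log10 q was chr4:66833572-66834253 in the PBS list (−log10 q 10.4, 19 fragments), over a coding exon. In the LPS list it was chr4:66833419-66835890 (−log10 q 20.5, 33 fragments). The peak of H3K27ac at this gene was weak for its list, at place 4024 of 4200 by −log10 q. It lay in an intron, 864 bp downstream of the TSS, at chr4:66828448-66828681, at 4.35-fold enrichment (−log10 q 2.22) and with 5 fragments at the summit, the lowest number that any peak of the list had. The sequence of 100 bases on either side of its summit is printed from the plus strand of GRCm38 because it holds 1 of 3 matches to the NF-κB consensus among the peaks within 10 kb of these genes, with the match in capitals.
Tlr4 intron, chr4:66828445-66828645: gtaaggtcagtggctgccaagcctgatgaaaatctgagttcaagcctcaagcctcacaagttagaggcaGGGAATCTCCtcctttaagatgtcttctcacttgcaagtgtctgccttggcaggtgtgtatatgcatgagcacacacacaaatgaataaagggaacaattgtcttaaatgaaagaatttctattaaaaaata

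Both genes whose products bind LPS for Tlr4, Ly96 and Cd14, had 2 LPS H3K27ac peaks within 10 kb. Ly96 encodes MD-2, which binds LPS in the receptor complex, and it had the strongest H3K27ac peak of the pathway within 10 kb. That peak, at chr1:16688009-16688222 and 211 bp upstream of the TSS over an exon of a non-coding transcript of the gene, had 13 fragments at 9.32-fold enrichment (−log10 q 9.88), and it stood at place 104 of the 4200 peaks of its list. The sequence at its summit is shown for that reason, from the plus strand, and holds no match to the motifs searched, which are given further on.
Ly96 promoter side, chr1:16688043-16688243: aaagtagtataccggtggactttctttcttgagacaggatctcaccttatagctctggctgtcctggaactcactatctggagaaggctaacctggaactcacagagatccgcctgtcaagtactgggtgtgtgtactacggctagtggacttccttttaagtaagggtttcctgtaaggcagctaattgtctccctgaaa
A weaker peak at chr1:16688509-16688654 (8 fragments, 6.63-fold, −log10 q 5.19) covered coding sequence of Ly96, 76 bp downstream of the TSS. H3K4me1 at Ly96 comprised 5 peaks in each list, which covered 2231 bp under PBS and 1787 bp under LPS. A PBS H3K4me1 peak overlapped the strongest H3K27ac peak, whereas the LPS H3K4me1 peak closest to it was 1435 bp away. The highest H3K4me1 peaks lay in a Ly96 intron, at chr1:16695908-16696985 in the PBS list (−log10 q 14.7, 25 fragments) and at chr1:16695045-16695682 in the LPS list (−log10 q 21.2, 33 fragments).

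Cd14, the co-receptor that hands LPS to MD-2 and Tlr4, had the most H3K27ac peaks of the 41 genes in the wider window, 7 within 50 kb. Of these, 2 lay within 10 kb and downstream of the TSS. The first, chr18:36720403-36720613, had 10 fragments at 7.64-fold enrichment (−log10 q 6.79), was 6185 bp from the TSS, and was overlapped by H3K4me1 in both lists. The second, chr18:36723335-36723453, had 7 fragments at 5.4-fold enrichment (−log10 q 3.35) at 3345 bp. H3K4me1 within 10 kb of Cd14 was shorter under LPS, with 8 peaks over 2239 bp under PBS and 6 over 1713 bp under LPS. Its highest H3K4me1 peaks were chr18:36727490-36728046 under PBS (−log10 q 10.8, 21 fragments) and chr18:36728363-36728545 under LPS (−log10 q 6.44, 16 fragments). Between 10 and 50 kb, chr18:36744728-36745087 was the strongest H3K27ac peak counted for any gene of the pathway (18 fragments, 9.49-fold, −log10 q 11.7), but its summit lay 197 bp from the TSS of Ik, a neighbouring splicing gene. The peaks at chr18:36708197-36708492 (−log10 q 5.54, 12 fragments) and chr18:36748997-36749179 (−log10 q 5.38, 9 fragments) were also among the 5 strongest at that distance, and the latter lay within Ik. The summit of the former was 12447 bp from the TSS of E230025N22Rik and 18426 bp from that of Cd14. Every Cd14 peak beyond 10 kb had its summit closer to the TSS of E230025N22Rik or of Ik than to that of Cd14.

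The receptors for nucleic acids had H3K4me1 but no H3K27ac peak within 50 kb. Lack of such a peak was the common state, as 22.7% of all genes had an LPS one there. Among genes with PBS H3K4me1 within 50 kb the share was 31.6%. Tlr7, for single-stranded RNA, had 12 PBS and 13 LPS H3K4me1 peaks within 10 kb over 2835 bp and 5740 bp. Tlr9, for CpG DNA, had 10 and 8 peaks over 4081 bp and 6058 bp. Covered length at both was thus longer under LPS, with 1 more peak at Tlr7 and 2 fewer at Tlr9. Tlr13, which binds bacterial ribosomal RNA in the mouse, had 4 peaks in each list over 1278 bp and 1220 bp. Tlr3, for double-stranded RNA, had 2 and 5 peaks over 1087 bp and 1783 bp, the LPS list alone with a peak across the TSS. Tlr8, the gene beside Tlr7, had H3K4me1 within 10 kb under PBS only. It had 2 peaks there, of which chrX:167260333-167260500 was the higher, in an intron, with a −log10 q of 3.93 and 11 fragments, while the closest LPS peak was 12758 bp from the TSS. The nearest LPS H3K27ac peaks lay at 322202 bp for Tlr9, 694327 bp for Tlr8, 761097 bp for Tlr7, 1007624 bp for Tlr13 and 76737 bp for Tlr3. Tlr5, the surface receptor for flagellin, also had no H3K27ac peak within 50 kb, with 5 H3K4me1 peaks in each list over 2548 bp and 3204 bp and its closest H3K27ac peak 85647 bp away.

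Tlr1, Tlr2 and Tlr6, whose products pair up to bind bacterial lipoproteins, differed in which marks lay close to them. Tlr2, the shared subunit, had 5 PBS and 3 LPS H3K4me1 peaks within 10 kb over 2585 bp and 2631 bp, and its nearest LPS H3K27ac peak was 819460 bp away. Tlr6, the partner for diacylated lipopeptides, had little H3K4me1, with 1 PBS peak over 415 bp and 2 LPS peaks over 655 bp. It nevertheless had 2 LPS H3K27ac peaks next to its TSS. The stronger, at chr5:64959689-64959899, lay in an intron 148 bp downstream of the TSS, with 13 fragments at 8.78-fold enrichment (−log10 q 9.01), second among all peaks within 10 kb of these genes. The weaker, at chr5:64961061-64961206 and 1014 bp upstream, had 12 fragments at 3.71-fold enrichment (−log10 q 2.22). Neither overlapped H3K4me1 of either list, and the highest H3K4me1 peaks were chr5:64961788-64962202 under PBS (−log10 q 7.97, 21 fragments) and chr5:64961843-64962202 under LPS (−log10 q 7.16, 16 fragments). The sequences at both H3K27ac summits are given from the plus strand, the stronger for its rank and the weaker because it holds the AP-1 matches of the set, which are in capitals. The second of these matches lies beyond the edge of the peak.
Tlr6 intron, chr5:64959672-64959872: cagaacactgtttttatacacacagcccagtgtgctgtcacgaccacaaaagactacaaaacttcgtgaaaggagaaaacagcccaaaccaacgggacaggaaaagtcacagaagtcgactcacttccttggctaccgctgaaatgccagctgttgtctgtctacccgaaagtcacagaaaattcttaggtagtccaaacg
Tlr6 upstream, chr5:64961105-64961305: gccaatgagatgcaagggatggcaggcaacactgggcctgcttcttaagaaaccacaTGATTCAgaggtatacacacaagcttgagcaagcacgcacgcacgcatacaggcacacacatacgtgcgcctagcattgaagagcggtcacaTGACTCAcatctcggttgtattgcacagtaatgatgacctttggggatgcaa
Tlr1, the partner for triacylated lipopeptides, is the neighbour of Tlr6. It had 1 PBS and 3 LPS H3K4me1 peaks within 10 kb, over 1070 bp and 765 bp, and no H3K27ac peak there. Of its 4 LPS H3K27ac peaks within 50 kb, 2 were the peaks of Tlr6 just described, so that the stronger of them, 26928 bp from the TSS of Tlr1, also ranked among the 5 strongest at 10 to 50 kb.

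All 4 adaptors had a longer H3K4me1 cover within 10 kb under LPS than under PBS. For Myd88, the adaptor used by every Toll-like receptor except Tlr3, 4 PBS peaks covered 3979 bp and 8 LPS peaks 5270 bp. For Ticam1, also called TRIF, the adaptor of Tlr3 and of endosomal Tlr4, 4 PBS peaks covered 1532 bp and 10 LPS peaks 4153 bp. For Ticam2, or TRAM, which links Tlr4 to TRIF, the counts were 2 and 6 over 897 bp and 2422 bp. Tirap, which sorts Myd88 to Tlr2 and Tlr4 at the membrane, had the least, with 1 and 2 peaks over 145 bp and 643 bp. An LPS peak reached across the TSS at Tirap and at Ticam2, where the closest PBS peaks were 9408 bp and 595 bp away. Among the 4 adaptors the ratio of covered lengths was 1.91, beside 1.37 over all protein-coding genes. As 71.4% of all genes with any H3K4me1 had more of it in the LPS list, the longer of the lists, a count of 4 of 4 is little beyond that background.

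Myd88 and Ticam1 had an LPS H3K27ac peak within 10 kb. That of Myd88, at chr9:119340332-119340479, was 291 bp upstream of the TSS, in an intron of a longer Myd88 transcript and of the overlapping Acaa1a, and had 9 fragments at 5.24-fold enrichment (−log10 q 3.35). No H3K4me1 peak overlapped it, and the nearest was 616 bp away under LPS and 2374 bp away under PBS. The highest H3K4me1 peaks near Myd88 lay in an intron of the adjoining Slc22a14, at chr9:119333181-119335365 under PBS (−log10 q 10.4, 30 fragments) and chr9:119333690-119334838 under LPS (−log10 q 24.3, 28 fragments). The peak counted for Ticam1, chr17:56266664-56266817, had 10 fragments at 5.6-fold enrichment (−log10 q 4.02), and overlapped H3K4me1 of both lists. It was a borderline member of the window, since its near edge lay 9969 bp downstream of the Ticam1 TSS and its summit was closer to the TSS of Fem1a, at 9925 bp. The highest H3K4me1 peaks of Ticam1 were chr17:56266607-56266913 under PBS (−log10 q 7.51, 28 fragments), which covers that H3K27ac peak, and chr17:56276822-56277018 under LPS (−log10 q 11, 22 fragments), 36 bp from the TSS. Just outside the window, a peak 10235 bp upstream of Tirap had a −log10 q of 5.28 and sat 278 bp from the TSS of Foxred1. Ticam2 had no LPS H3K27ac peak within 50 kb, the nearest being 134798 bp away.

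In the next step, Traf6 and Traf3 are ubiquitin ligases of the branches towards NF-κB and towards interferon genes. Both had more H3K4me1 peaks under LPS, with 1 PBS and 3 LPS peaks at Traf6 over 146 bp and 798 bp, and 3 and 6 peaks at Traf3 over 1307 bp and 3102 bp. The LPS H3K27ac peak of Traf3, chr12:111159957-111160143, lay 6320 bp upstream of its TSS in a UTR exon of an adjoining transcript, overlapped H3K4me1 of both lists and had the most fragments of the 20 peaks within 10 kb. These were 15 fragments at 4.56-fold enrichment (−log10 q 3.87). The highest H3K4me1 peak of Traf3 was chr12:111159853-111160604 under PBS (−log10 q 7.67, 26 fragments), around the same site, and chr12:111164530-111164727 under LPS (−log10 q 13.2, 28 fragments). Traf6 had no H3K27ac peak closer than 1221194 bp.

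The TAB proteins are partners of the kinase TAK1, and the 3 genes showed 3 different patterns. Tab1, which binds and activates TAK1, had no H3K4me1 peak within 10 kb in either list, the closest being 27498 bp away under PBS and 27731 bp under LPS. It had 2 LPS H3K27ac peaks in an intron beside the TSS. They were chr15:80133190-80133351 at 63 bp (11 fragments, 4.79-fold, −log10 q 3.23) and chr15:80133871-80134171 at 744 bp (11 fragments, 6.55-fold, −log10 q 5.38). The latter is printed from the plus strand as the strongest H3K27ac peak at a gene without H3K4me1, with its match to the PU.1 core in capitals.
Tab1 intron, chr15:80133901-80134101: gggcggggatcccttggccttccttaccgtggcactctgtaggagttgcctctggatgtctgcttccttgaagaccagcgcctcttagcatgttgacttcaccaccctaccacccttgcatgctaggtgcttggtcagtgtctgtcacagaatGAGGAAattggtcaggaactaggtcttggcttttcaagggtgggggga
Tab2, a ubiquitin-binding partner of TAK1, had 7 PBS and 4 LPS H3K4me1 peaks over 2015 bp and 1595 bp. Its H3K27ac peak, chr10:7947804-7947987, was intronic, 8243 bp downstream, with 7 fragments at 5.9-fold enrichment (−log10 q 4.09), and was overlapped by both H3K4me1 lists. The highest H3K4me1 peaks of Tab2 were chr10:7950765-7951178 under PBS (−log10 q 10.4, 20 fragments) and chr10:7950720-7951638 under LPS (−log10 q 12.1, 26 fragments). Tab3, related to Tab2, had the sparsest surroundings. Its only peak within 50 kb in any list was the PBS H3K4me1 peak chrX:85573773-85573938, 84 bp upstream of the TSS, with a −log10 q of 5.13 and 12 fragments, with LPS H3K4me1 no closer than 196405 bp.

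Of the kinases of the IRAK family, which bind Myd88, Irak2 alone had an LPS H3K27ac peak within 10 kb. The peak, at chr6:113644284-113644427, was intronic, 5817 bp downstream of the TSS, with 9 fragments at 6.13-fold enrichment (−log10 q 4.48), and lay 561 bp from PBS and 554 bp from LPS H3K4me1. Irak2 had 6 PBS and 7 LPS H3K4me1 peaks over 2974 bp and 3205 bp. The highest were chr6:113629315-113630915 (PBS, −log10 q 12.5, 35 fragments) and chr6:113629400-113631256 (LPS, −log10 q 12.8, 25 fragments), both in the neighbouring Vhl. Irak4, the first kinase to join Myd88, had 1 peak across its TSS in each list, over 473 bp and 751 bp. Irak1 had no peak of any list within 10 kb and its closest H3K4me1 was 27527 bp away under PBS and 16886 bp under LPS.

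TAK1 and TPL2, encoded by Map3k7 and Map3k8, activate the kinases below them. Map3k7 had 3 PBS and 4 LPS H3K4me1 peaks over 758 bp and 1228 bp. Map3k8 had 9 and 6 over 5919 bp and 3725 bp, which was the longest PBS cover of the 41 genes. Between the lists its cover decreased by 2194 bp, more than at any other gene of the pathway. Its 2 LPS H3K27ac peaks lay in an intron beyond 10 kb and overlapped H3K4me1 of both lists. The stronger, chr18:4335823-4335965 at 17050 bp, had 11 fragments at 8.13-fold enrichment (−log10 q 7.66) and was among the 5 strongest at 10 to 50 kb.

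The IKK complex, which releases NF-κB, consists of 2 kinases and the regulatory subunit NEMO. Chuk (IKK alpha) had 1 H3K4me1 peak in each list over 200 bp and 181 bp, and Ikbkb (IKK beta) had 5 PBS and 7 LPS peaks over 1692 bp and 2014 bp, with no H3K27ac peak within 50 kb of either. Ikbkg, the gene of NEMO, had 2 LPS H3K27ac peaks. The peak at chrX:74424166-74424323, 5381 bp upstream, had 8 fragments at 6.63-fold enrichment (−log10 q 5.19) and overlapped PBS H3K4me1. Its summit was closer to the TSS of G6pdx, at 4935 bp, than to that of Ikbkg, at 5445 bp. The peak at chrX:74429032-74429336, 368 bp upstream, had 8 fragments at 5.99-fold enrichment (−log10 q 4.17). Ikbkg overlaps G6pdx, whose TSS was 56 bp from the summit of the latter, so that neither gene can be given the peak by position. The choice of start also decided here, because the gene record of Ikbkg starts 36414 bp further upstream, where no H3K27ac or H3K4me1 peak lay within 10 kb. H3K4me1 at Ikbkg comprised 2 peaks in each list over 1052 bp and 379 bp, the highest being chrX:74423915-74424729 under PBS (−log10 q 3.93, 11 fragments) and chrX:74420728-74420931 under LPS (−log10 q 2.89, 8 fragments).

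Tbk1 and Ikbke, the kinases that phosphorylate IRF3, shared H3K4me1 but not H3K27ac. Tbk1 had 7 PBS and 9 LPS H3K4me1 peaks over 3281 bp and 5417 bp, and its closest LPS H3K27ac peak was 79566 bp away. Ikbke had 4 peaks in each list over 2054 bp and 1937 bp. The H3K27ac peak of Ikbke, chr1:131277255-131277417, was intronic, 2189 bp downstream, with 12 fragments at 4.32-fold enrichment (−log10 q 2.95), and overlapped H3K4me1 of both lists. The highest H3K4me1 peaks of Ikbke were chr1:131286810-131287723 under PBS (−log10 q 7.32, 23 fragments) and chr1:131276396-131277282 under LPS (−log10 q 11.3, 25 fragments), the LPS one at the site of the H3K27ac peak.

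Of the MAP kinases, Mapk9 (JNK2) and Mapk14 (p38 alpha) had an LPS H3K27ac peak within 10 kb, while Mapk3 (ERK1) and Mapk8 (JNK1) had none within 50 kb. The peak of Mapk9, chr11:49847424-49847561, was intronic, 671 bp downstream of the TSS, with 8 fragments at 5.48-fold enrichment (−log10 q 3.52). Its sequence is shown from the plus strand for its match to the NF-κB consensus, in capitals.
Mapk9 intron, chr11:49847354-49847554: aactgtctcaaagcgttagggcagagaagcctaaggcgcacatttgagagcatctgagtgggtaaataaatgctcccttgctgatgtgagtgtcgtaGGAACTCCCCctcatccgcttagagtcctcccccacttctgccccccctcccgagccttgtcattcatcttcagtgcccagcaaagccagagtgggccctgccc
Mapk9 carried H3K4me1 across its TSS in both lists, chr11:49846367-49846916 under PBS (−log10 q 11.5, 25 fragments) and chr11:49846414-49846794 under LPS (−log10 q 5.9, 27 fragments). In all it had 2 peaks in each list, over 820 bp and 643 bp. The peak of Mapk14, chr17:28700012-28700142, was intronic, 8670 bp downstream, with 7 fragments at 5.58-fold enrichment (−log10 q 3.64), and overlapped H3K4me1 of both lists. Mapk14 had 4 PBS and 8 LPS H3K4me1 peaks over 1528 bp and 2842 bp, the highest being chr17:28698283-28698829 (PBS, −log10 q 7.77, 21 fragments) and chr17:28700543-28700865 (LPS, −log10 q 9.12, 19 fragments). Mapk3 had 3 and 5 peaks over 570 bp and 1254 bp. Mapk8 had no peak of any list within 10 kb, its closest H3K4me1 being 23825 bp away under PBS and 23905 bp under LPS.

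Of the kinases that activate the MAP kinases, Map2k4, which acts on JNK, had an LPS H3K27ac peak within 10 kb. This peak, chr11:65794614-65794747, was intergenic, 6317 bp upstream of the TSS and 9355 bp from PBS and 9399 bp from LPS H3K4me1, with 8 fragments at 5.99-fold enrichment (−log10 q 4.17). H3K4me1 at Map2k4 was shorter under LPS, with 3 PBS peaks over 2116 bp and 2 LPS peaks over 1129 bp. The highest were chr11:65784380-65785258 (PBS, −log10 q 14.4, 25 fragments) and chr11:65777772-65779048 (LPS, −log10 q 10.8, 23 fragments), both intronic. Map2k3, which acts on p38, had 3 and 4 peaks over 1406 bp and 1345 bp and its nearest H3K27ac peak at 52926 bp, just outside the wider window. Map2k1 (MEK1) had no peak of any list within 10 kb, its closest H3K4me1 being 24004 bp away under PBS and 23591 bp under LPS.

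The 3 inhibitors had H3K4me1 but no LPS H3K27ac peak within 50 kb. As 22.7% of all genes had one there, a count of 0 of 3 (upper bound 56.1%) does not set them apart. Irak3, which encodes the IRAK-M protein that dampens signalling by the other IRAKs, had 6 peaks in each list over 2950 bp and 2911 bp. Tollip had 1 peak in each list over 597 bp and 431 bp, and these depended on the start chosen, since none lay within 10 kb of the start of its gene record 16020 bp upstream. Sigirr, an inhibitory receptor of the family, was the gene with H3K4me1 within 10 kb under LPS only. Its peak, chr7:141096644-141096978, lay in an intron (−log10 q 3.76, 17 fragments). The closest PBS H3K4me1 peak to Sigirr was 22668 bp away. Nearest LPS H3K27ac peaks lay at 60110 bp for Irak3, 67398 bp for Sigirr and 342539 bp for Tollip.

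**Figure D2:**
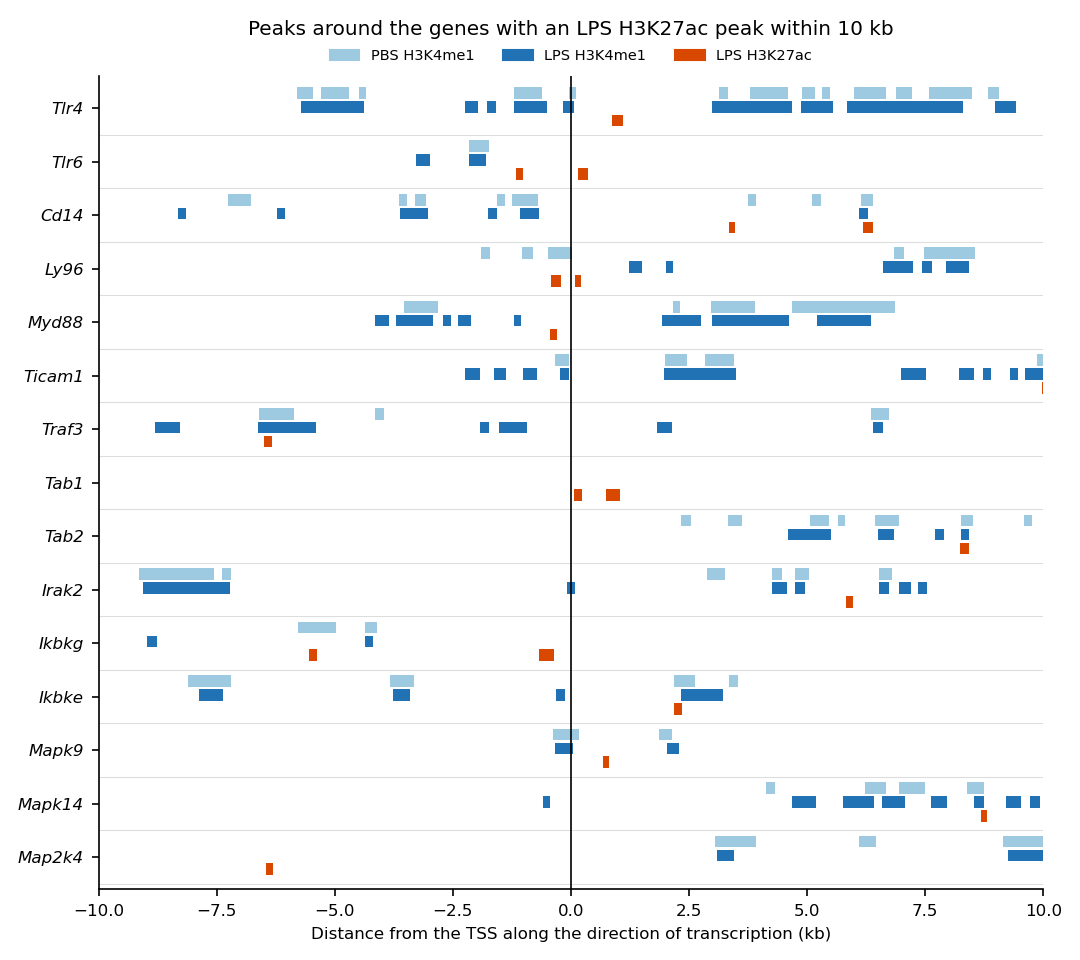
Peaks of PBS H3K4me1, LPS H3K4me1 and LPS H3K27ac around the 15 genes that had an LPS H3K27ac peak within 10 kb. The horizontal axis is the distance from the TSS in kb, positive along the direction of transcription, and each row is 1 gene. H3K27ac peaks at Tlr6, Ly96, Myd88, Tab1 and Mapk9 lie close to the TSS, those of Tab2, Mapk14 and Ticam1 lie beyond 8 kb downstream, and Tab1 has no H3K4me1 in its row.

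By step, the share of genes with an LPS H3K27ac peak within 10 kb was 4 of 12 among receptors (33.3%, 13.8 to 60.9%), 2 of 4 among adaptors (50%, 15 to 85%), 3 of 5 among TRAF and TAB proteins (60%, 23.1 to 88.2%), 6 of 17 among kinases (35.3%, 17.3 to 58.7%) and 0 of 3 among inhibitors (upper bound 56.1%). The share of all genes was 8.93%. The intervals of all 5 steps overlapped, so that no step could be set apart at these numbers. The order of the steps also rested on weak peaks, since a −log10 q of at least 5 left 3 receptors, 0 adaptors, 1 TRAF or TAB gene, 1 kinase and 0 inhibitors. At that limit the share of all genes was 3.36%. The gene left among kinases was Ikbkg, through its peak closer to the TSS of G6pdx. Adaptors came to 1 when the summit had to lie in the window or a peak counted for its closest gene only. Within 50 kb, Tlr1, Tirap and Map3k8 were added, which gave 5 of 12, 3 of 4, 3 of 5, 7 of 17 and 0 of 3. The share of all genes there was 22.7%. The 4 receptors with a peak within 10 kb were the LPS receptor, both of its helpers and Tlr6. The LPS receptor itself, Tlr4, was the receptor that dropped out at a −log10 q of at least 5. The median number of H3K4me1 peaks within 10 kb was 5 in both lists for receptors, whereas it was 3 under PBS and 7 under LPS for adaptors, 1 and 3 for TRAF and TAB genes, 3 and 4 for kinases and 1 and 1 for inhibitors.

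**Figure D3:**
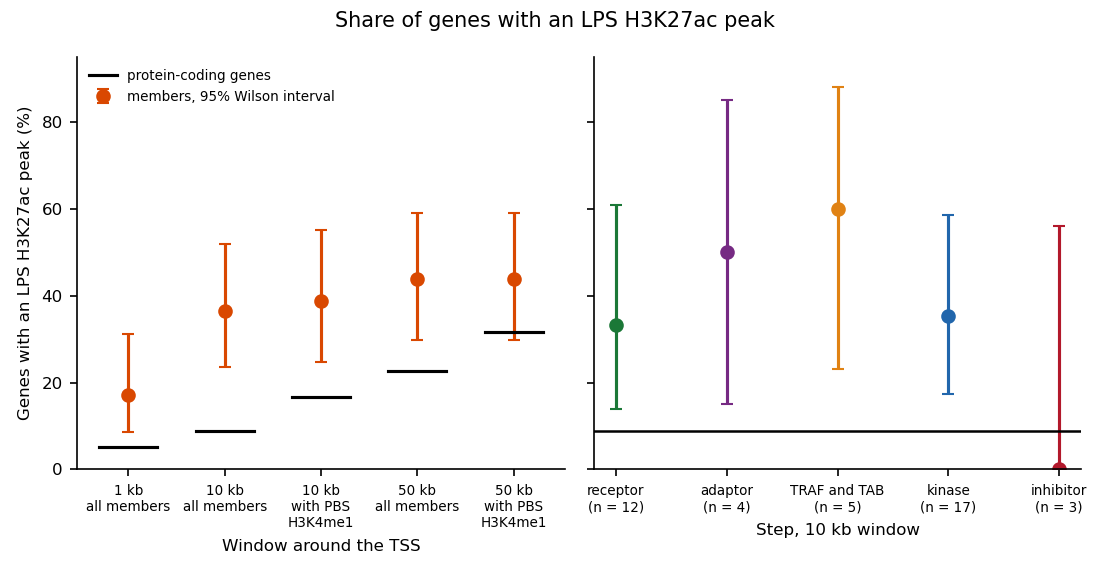
Share of genes with an LPS H3K27ac peak (vertical axis, %), with 95% Wilson intervals that cover counting error only. The left panel gives the 41 genes and those with PBS H3K4me1 in the same window (points) beside all protein-coding genes under the same condition (black bars), and the interval reaches below the bar only for genes with PBS H3K4me1 within 50 kb. The right panel gives the 10 kb share by step, from 0 of 3 inhibitors to 3 of 5 TRAF and TAB genes, with overlapping intervals and the share of all genes, 8.93%, as a line.

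The 41 genes were also compared with genes that already had H3K4me1 in control cells. Of the 36 genes of the pathway with a PBS H3K4me1 peak within 10 kb, 14 had an LPS H3K27ac peak there (38.9%, 24.8 to 55.1%), against 16.7% of the 9015 protein-coding genes with such a peak, and the gene left out by this condition was Tab1. With peaks of a −log10 q of at least 5 alone, these shares came to 3 of 30 (10%) and 7.02%, and over the whole pathway 5 of 41 genes were left (12.2%, against 3.36% of all genes). Within 50 kb the share was 18 of 41 against 31.6% of 14356 genes, which lies inside the interval of the pathway (29.9 to 59%). Genes of the pathway also had more PBS H3K4me1 peaks than other genes that had any, with a median of 3.5 against 2 within 10 kb and 8 against 5 within 50 kb. Counts at like numbers of H3K4me1 peaks were therefore set side by side. An LPS H3K27ac peak within 10 kb was found at 1 of 5 genes with no PBS H3K4me1 peak there (3.44% of all such genes), 3 of 13 with 1 or 2 (23.1% against 11.9%), 7 of 14 with 3 to 5 (50% against 18.4%) and 4 of 9 with 6 or more (44.4% against 32.2%). Within 50 kb the shares were 1 of 5 genes with 1 or 2 peaks (16.5% of all such genes), 2 of 7 with 3 to 5 (28.6% against 26.6%) and 15 of 29 with 6 or more (51.7% against 44%). Some windows overlap, and Tlr1 shared 2 H3K27ac peaks with Tlr6 within 50 kb.

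Closer to the TSS, within 1 kb, an LPS H3K27ac peak lay at 7 of 41 genes, namely Ikbkg, Ly96, Mapk9, Myd88, Tab1, Tlr4 and Tlr6 (17.1%, 8.53 to 31.3%), against 5.18% of all genes. A PBS H3K4me1 peak lay there at 15 of 41 (36.6%, 23.6 to 51.9%) against 16%, and an LPS H3K4me1 peak at 20 of 41 (48.8%, 34.3 to 63.5%) against 24.1%.

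H3K4me1 near the pathway covered more bases under LPS, in a list that was also the longer one. Summed over the 41 windows of 10 kb on either side, it covered 64782 bp in the PBS list and 81307 bp in the LPS list, a ratio of 1.26, where the ratio over all protein-coding genes was 1.37. Covered length was larger under LPS for 21 genes, larger under PBS for 16 and 0 in both lists for 4. Of the 37 genes with any H3K4me1, 56.8% thus had more under LPS, against 71.4% of 11241 such genes in the annotation. The ratio was 1.28 for receptors, 1.51 for TRAF and TAB genes, 1.05 for kinases and 1.04 for inhibitors, beside the 1.91 of adaptors. Among the 34 genes with H3K4me1 in both lists, Tirap and Traf6 had the highest ratios, 4.43 and 5.47, from short PBS covers, and Ikbkg had the lowest, 0.36. By presence alone, 34 genes had H3K4me1 within 10 kb in both lists, 2 in the PBS list only (Tlr8 and Tab3), 1 in the LPS list only (Sigirr), and 4 in neither (Irak1, Tab1, Mapk8 and Map2k1). In this order the shares were 82.9%, 4.88%, 2.44% and 9.76%, against 37.4%, 3.85%, 10.2% and 48.6% of all protein-coding genes.

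**Figure D4:**
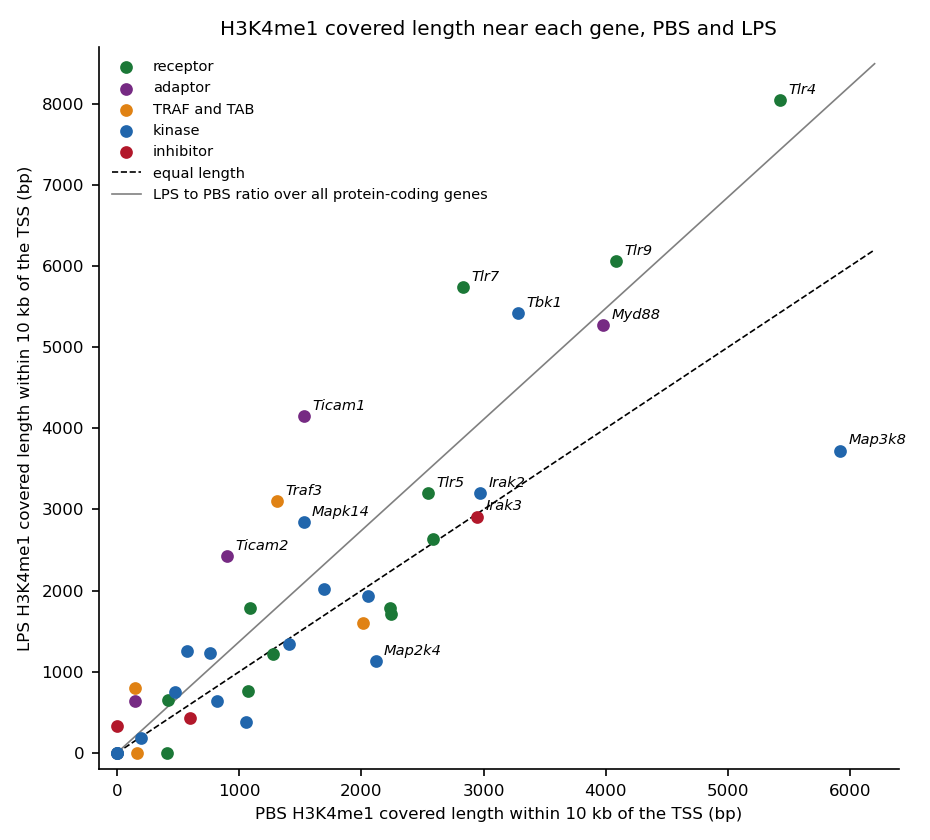
Base pairs covered by H3K4me1 peaks within 10 kb of the TSS in the PBS list (horizontal axis) and the LPS list (vertical axis), 1 point per gene, coloured by step. The dashed line marks equal length and the grey line the ratio of 1.37 over all protein-coding genes. Tlr7, Tbk1, Ticam1, Traf3 and Mapk14 lie above the grey line, and Map3k8 and Map2k4 lie below the dashed line.

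Most individual H3K4me1 peaks within 10 kb of these genes shared bases with a peak of the other list, but 43 PBS and 72 LPS peaks shared none. Of 151 distinct PBS peaks within 10 kb of these genes, 108 shared at least 1 bp with an LPS peak (71.5%, 63.9 to 78.1%), and of 172 LPS peaks 100 shared bases with a PBS peak (58.1%, 50.7 to 65.3%). Peaks within 10 kb of any protein-coding gene gave 69.3% and 54.3%, both inside those intervals.

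The 20 LPS H3K27ac peaks within 10 kb had values near the medians of their list. Their median fold enrichment was 5.75 (range 3.71 to 9.32), their median −log10 q 4.05 and their median width 160 bp, and the medians over all 4200 peaks were 5.36, 3.75 and 150.5 bp. The median of fragments at the summit was 9 in both, with a range of 5 to 15 near the pathway. PBS H3K4me1 overlapped 8 of the 20 (40%) and LPS H3K4me1 6 (30%), against 29.9% and 33.6% of the whole list. Neither overlapped 12 of the 20, and 2548 of all 4200 peaks likewise lacked both, which does not set the pathway apart. All 6 peaks with LPS H3K4me1, at Cd14, Ticam1, Traf3, Tab2, Ikbke and Mapk14, were among the 8 with PBS H3K4me1, to which Ly96 and Ikbkg were added. A summit within 1 kb of a coding TSS was found for 9 of 20 (45%), against 25.9% of the list. The 20 were picked for lying within 10 kb of a coding TSS and the list was not. The difference between these shares therefore says nothing about the pathway. Of the 20 peaks, 17 passed the smallest −log10 p of the PBS H3K27ac list, 6.91, as did 2947 of all 4200 peaks.

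A set of 4 motifs was searched in the same windows of 100 bases on either side of each summit, on both strands. They were the consensus of NF-κB, a motif of AP-1 (TGANTCA), the core of PU.1 (GAGGAA), a factor of the macrophage lineage, and an interferon response motif made of GAAA, any 2 bases and GAAA. The NF-κB consensus matched 3 of 20 windows (15%, 5.24 to 36%), at Tlr4, Mapk9 and the Cd14 peak 6185 bp from the TSS, against 5.29% of all 4200. The AP-1 motif matched 1 of 20 (5%, against 6.4%), the upstream Tlr6 window, at a pair of places. The PU.1 core matched 6 of 20 (30%, 14.5 to 51.9%, against 21.4%), at Tab1, Ikbkg, Map2k4, Ticam1, Mapk14 and Ikbke, and the interferon response motif 0 of 20 (upper bound 16.1%, against 2.88%). The share over all windows lay inside the interval of the pathway for AP-1, PU.1 and the interferon motif, and just inside it for NF-κB. Median GC content was 46.8% (39.8 to 70.1%) near the pathway and 48.8% over the list. A match describes letters and not binding, and a window may reach past the edges of its peak.

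Other genes of the pathway that are not among the 41 were counted as a list of 44. Of these, 34 had PBS H3K4me1 and 34 LPS H3K4me1 within 10 kb, against 41.3% and 47.6% of all genes. None had PBS H3K27ac there, against 0.174% of all genes. LPS H3K27ac lay within 10 kb of 14 (31.8%, against 8.93% of all genes) and within 50 kb of 26 (59.1%, against 22.7%). Of the 34 with PBS H3K4me1 within 10 kb, 12 had LPS H3K27ac there, against 16.7% of all such genes. The 14 with LPS H3K27ac within 10 kb included Cd180 and Ly86, a receptor pair related to Tlr4 and MD-2, with 4 and 2 peaks. Also among them were the LPS-binding protein gene Lbp, the endosomal trafficking genes Unc93b1 and Slc15a4, and the ubiquitin genes Peli1, Traf1, Ube2n and Tnfaip3. Further ones were the kinases Map2k2 and Btk, the TBK1 adaptor Azi2 and the transcription factor Irf5. Tnfaip3, which encodes the feedback inhibitor A20, had 2 peaks within 10 kb and 6 within 50 kb.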

How the data were processed

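CUT&RUN was done on BMDMs under PBS or LPS, and the 4 histone mark libraries were analysed. Both IgG libraries, for which no peak list was used here, stayed out. From the methods and the submitters' processing notes, the authors aligned reads to GRCm38 with Bowtie2 2.4.4, removed blacklisted regions and called peaks per library with MACS2 2.2.7.1. How the control entered the calls was not given in the sources used here. The deposited values per peak were fold enrichment (a ratio), −log10 p, −log10 q and a score, which was not used. Groups followed the sample labels.

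Genes came from GENCODE M21, another release than that of the authors. The TSS was that of the best ranked coding transcript (by APPRIS tag, then transcript support level), and distance ran to the nearer peak edge. Overlap meant at least 1 bp. Fragments at summits were recovered from fold enrichment and p, a step tested on simulated data, as was the motif search. The simulated fragment numbers did not reach down to the lowest ones of these lists. Nor did the simulated scale factors reach down to those fitted to the H3K4me1 lists. Python 3.11.15, numpy 2.4.6 and scipy 1.17.1 were used. The members and lists were chosen with earlier results of these data known. Every gene of the list is named, with positions for LPS H3K27ac peaks within 10 kb, the 5 strongest at 10 to 50 kb, and the highest H3K4me1 peaks of genes with such a peak or with H3K4me1 in 1 treatment only. Gene sets were set beside all genes of the same kind, and no test was made, as each group had 1 library. Alternatives were a −log10 q of at least 5, other TSS choices, the summit inside the window, assignment to the closest gene only, a common −log10 p for H3K27ac, H3K4me1 lists of equal length and a background with either H3K4me1 list. Sequences from chromosome 18 are not reported here.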

Additional observations from a re-analysis of the deposited data

How the results depend on the processing

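No paired analysis was possible because each treatment and antibody had 1 library. Of 84 values recomputed under other settings, 75 stayed within 1.5 times the reported value (for counts of 0, at 0) and 9 did not. A −log10 q of at least 5 in every list accounted for 7 of these. Under it, genes with an LPS H3K27ac peak went from 15 to 5 within 10 kb (Cd14, Ikbkg, Ly96, Tab1 and Tlr6) and from 18 to 8 within 50 kb. The shares of all genes at that limit were 3.36% and 9.14%. Among genes with PBS H3K4me1 they went from 14 to 3 within 10 kb (10% of 30, against 7.02% of all such genes) and from 18 to 7 within 50 kb (17.9% of 39, against 14.3%). By step, 0 adaptors, 1 TRAF or TAB gene and 1 kinase were left, of 2, 3 and 6. At that limit the share of pathway genes with prior H3K4me1 that had H3K27ac within 10 kb was thus close to that of other genes. The count of adaptors was also 1 when the summit had to lie in the window and when a peak counted for its closest gene only, both through Ticam1. Counting a peak for its closest gene only gave 12 of 34 within 10 kb (35.3%, against 14.6%) and 14 of 36 within 50 kb (38.9%, against 18.2%). A common −log10 p for both H3K27ac lists removed Ikbke and Tlr4, and the start of the gene record removed Ikbkg. Peaks of H3K27ac rested on few fragments, so that a gene without one may have had signal under the caller's limit. The ratio of H3K4me1 covered lengths ran from 1.18, with the LPS list shortened to the PBS number of peaks, to 1.4 at the higher q limit.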
